A study of Mus musculus with 2 samples.

Results

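Macrophages were sought in a single-cell RNA dataset of mouse colonic crypts as cell barcodes that carried transcripts of C1q and few or none of epithelial or T cell genes. A barcode counted as a macrophage when it held at least 3 unique molecular identifiers (UMIs, each the tag of 1 captured RNA molecule) of C1qa, C1qb and C1qc together, at most 1 of Epcam and 0 of Cd3e. It also had to hold at least 500 detected genes and under 25% mitochondrial UMIs. By this rule 92 of 16279 barcodes that passed the gene and mitochondrial limits were macrophages, of 19406 barcodes deposited. The knockout library (Mettl14_cKO) held 89 of them and the control library 3. The cells were chosen by their C1q, Epcam and Cd3e UMIs, so values of these genes are given as a description and support nothing.

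Crypt cells had been isolated from the colon of C57BL/6 mice aged 4 weeks and profiled with the 10x Genomics droplet method. Control mice carried floxed Mettl14 alleles, written M14(f/f) in the labels, and knockout mice carried the same alleles with Villin-Cre, M14(f/f);Villin-Cre. Villin-Cre makes its recombinase in gut epithelium and not in macrophages, so these cells are not the ones in which the allele is deleted. Cells of 3 mice were pooled per genotype, which leaves 1 library per genotype, no error between animals and no test. Every interval below is a 95% interval that covers counting error only. Genotype, pool, library and sex cannot be told apart: the control library held 7 UMIs of Xist and 11518 of 4 Y-linked genes, and the knockout library 30365 and 7.

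Macrophages of the colon lie beneath the epithelium, where they engulf bacteria and dying cells and present antigen to T cells. Most are replaced through life by blood monocytes that enter with Ccr2 and Ly6c2 and then gain Cx3cr1, MHC class II and C1q, while some long-lived cells carry markers such as Timd4, Cd4, Cd163, Folr2 and Lyve1. Inflamed colon also holds monocyte-derived cells that make Il1b, Tnf and chemokines. C1q, the opening component of the classical complement pathway, is made by tissue macrophages from 3 genes that stand side by side. In the GENCODE M21 annotation (GRCm38) C1qb, C1qc and C1qa lie on the minus strand of chromosome 4 from 136880129 to 136898803.

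The libraries held 10181 control and 9225 knockout barcodes with 111239295 and 89729527 UMIs. A total of 9154 control and 7125 knockout barcodes were kept, with medians of 10094 and 6280 UMIs. The knockout macrophages had a median of 4933 UMIs (833 to 11081), 1563 detected genes and 1.45% mitochondrial UMIs, 442562 UMIs in all. The libraries shared 33 barcode sequences, of which 1 was a knockout macrophage and 0 were control macrophages. A doublet score of at least 0.25 was reached by 77 control and 53 knockout barcodes, none of them a macrophage. A lower score does not show that a barcode held a single cell.

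Macrophages made up 1.25% of kept barcodes in the knockout library (1.004 to 1.535) and 0.0328% in the control library (0.00676 to 0.0957). Against only the barcodes with at most 1 Epcam and 0 Cd3e UMIs, which may still include epithelial barcodes with little Epcam, they were 7.11% of 1252 (5.75 to 8.68) and 0.802% of 374 (0.166 to 2.33). Other immune cells also stood at different numbers: barcodes with at least 20 UMIs of the neutrophil genes S100a8 and S100a9 numbered 202 (1 of them with 903 UMIs of the mast cell gene Mcpt1) in the knockout and 0 in the control library, and barcodes of the B lineage 92 and 2. T cell barcodes numbered 161 and 126. The 3 control cells held 4750, 1494 and 1411 UMIs, and their C1q sums were 88, 18 and 13. In the same order they carried 194, 116 and 83 UMIs of Cd74, 44, 0 and 15 of Apoe, 14, 0 and 5 of Lyz2, and 11, 1 and 3 of Il1b. Such small numbers allow no comparison of programmes between the genotypes, and all further values are from the knockout library.

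The Epcam limit decided who was counted in the control. A further 106 control barcodes had at least 3 C1q UMIs, all with more than 1 Epcam UMI. All 106 held C1qa and Muc2, the mucin of goblet cells, and none held C1qb, C1qc, Lyz2 or Csf1r. In the knockout library 42 such barcodes were left out, of which 38 held C1qa, 12 C1qb, 10 C1qc and 38 Muc2, and 11 held Lyz2 and 10 Csf1r. Just below the threshold, 14 knockout barcodes had 1 or 2 C1q UMIs, with pooled levels of 5128 CPM (UMIs of a gene per 1000000 UMIs of the group) for Apoe and 2730 for Lyz2. Just inside it, 11 macrophages with 3 to 5 C1q UMIs had 2438 and 3032 CPM. The other 78 held 7 to 198 C1q UMIs, with 14456 CPM of Apoe and 7682.5 of Lyz2.

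Apoe, Lyz2 and Csf1r, macrophage genes that the rule did not use, were read in most of the cells. Whether each of the 89 cells is a macrophage was not tested. Apoe, a lipid carrier, was present in all 89 cells at 171 to 70342 CPM, with a median of 10406 and a pooled level of 13130.4 CPM (12795 to 13472). The pooled level was 336 CPM in the neutrophil group, 606 in the B lineage group, 24.4 in T cells and 4.90 in epithelial barcodes. Apoe differed with C1q, with a Spearman correlation of 0.55 across the 89 cells. Ranked by C1q per 10000 UMIs, the lowest 9 cells had 1858 CPM of Apoe and the highest 8 had 27786. Lyz2, myeloid lysozyme, was present in 87 cells at 7169.6 CPM, against 2608 in the neutrophil group and 0 UMIs in the B lineage group. Its reads are hard to part from those of its near copy Lyz1. Csf1r, the receptor that macrophages need to survive, was found in 70 cells (78.7%, 68.7 to 86.6) and in 0.362% of epithelial barcodes, although the latter had a median of 11318 UMIs. Fcgr1, the high-affinity IgG receptor, was in 45 cells and Adgre1, which encodes F4/80, in 25.

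Of 17 macrophage identity genes tested against the neutrophil group, 12 were at least 2-fold higher, 1 was lower and 4 lay between. Over all 4936 genes tested in that comparison 30.1% were at least 2-fold higher and 11% at least 2-fold lower, with medians of 2.19 for the list and 0.56 for all genes on the log2 scale (pseudocount 10 CPM). Among all genes with at least 20 UMIs, those highest over every other kept barcode included the C1q genes, Apoe, Lyz2, H2-Ab1, H2-Aa, H2-Eb1, Fcer1g, Clec4n and Pla2g7. Clec4n, the fungal sugar receptor dectin-2, had 1281 CPM in 77 cells. Pla2g7, an enzyme that inactivates platelet-activating factor, had 1225 CPM in 81 cells.

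Markers of other cell types were low but not all absent. The T or NK list summed to 4.52 CPM and the stromal and vessel list to 9.04 CPM, with Cd3g, Trbc2, Nkg7, Col1a1, Col1a2 and Cdh5 at 0 UMIs. The B or plasma list summed to 217 CPM with a UMI in 52 macrophages, against 97346 CPM in the B lineage group. Xbp1 gave 59.4% of it, Cd79a had 1 UMI and Mzb1 and Pax5 had 0. The neutrophil list summed to 468 CPM with a UMI in 64 macrophages, against 139173 CPM in the neutrophil group, and Il1r2 gave 31.4% of it. Of that list S100a8 was found in 22 macrophages at 88.1 CPM, against 54766 CPM in the neutrophil group, and Retnlg, Camp and Ngp were at 0 UMIs. The dendritic cell list summed to 2241 CPM, against 820 in the neutrophil group, 842 in the B lineage group, 429 in T cells and 493 in epithelial barcodes. Only 4 of its 15 genes could be tested against the neutrophil group. All 4 were at least 2-fold higher, where 30.1% of all genes tested were. Cst3, a protease inhibitor that many cells make, gave 88.6% of that sum, and Irf8 was in 40 cells and Itgax in 26. Of the same list Flt3, Zbtb46, Xcr1, Cd209a, Siglech, Itgae and Ccr9 were at 0 UMIs. Epithelial genes summed to 1803 CPM in macrophages and 39951 CPM in epithelial barcodes. They summed to 1446 CPM in the B lineage group, 2326 in T cells and 2971 in the neutrophil group. The highest single macrophage had 24818 CPM of them, near the median of 25672 CPM per epithelial barcode. Whether that macrophage was a doublet was not tested. The part of epithelial genes in the macrophage values was not tested. Shares of cells with a UMI are therefore given beside those of epithelial barcodes, both thinned to 1000 UMIs per cell.

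**Figure D1:**
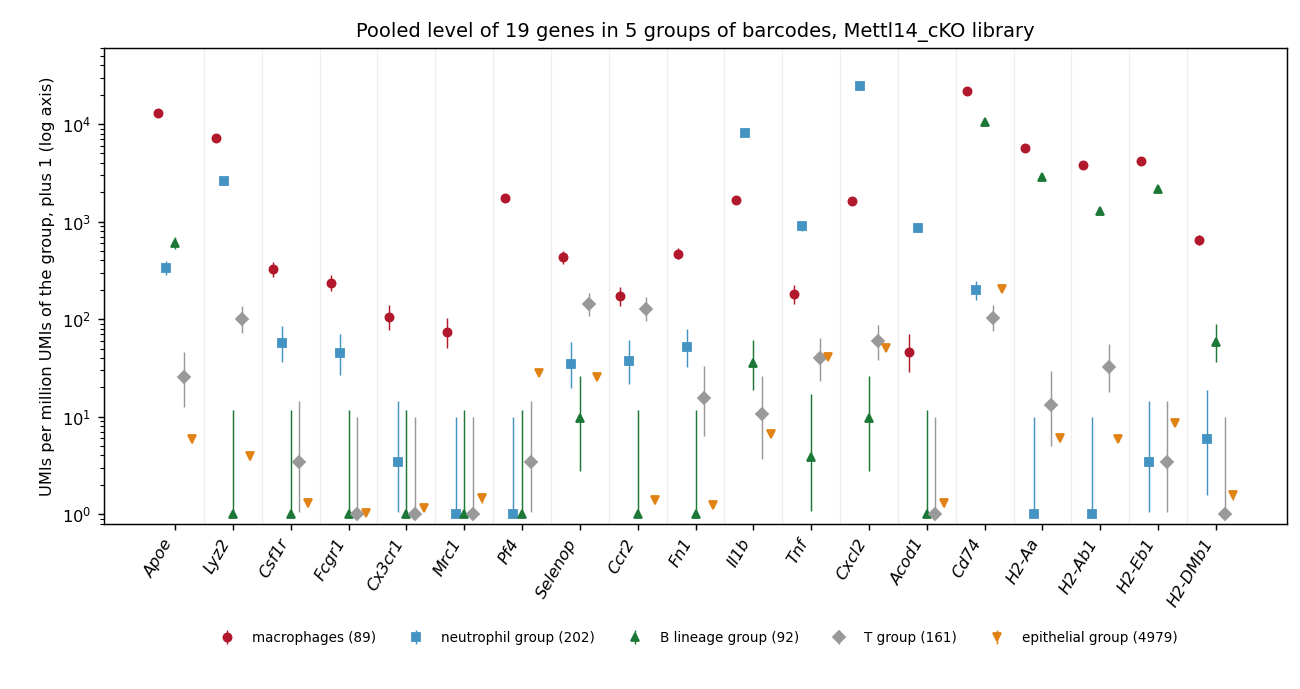
Pooled levels of 19 genes (log axis, CPM plus 1) in the 89 macrophages, 202 neutrophil, 92 B lineage, 161 T and 4979 epithelial barcodes of the knockout library, with bars for the 95% counting interval. Apoe stands at 13130.4 CPM in the macrophages, Il1b at 1679 CPM in macrophages and 8043 CPM in the neutrophil group, and H2-Aa at 5714 and 0 CPM.

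Genes of the resident programme were present in part. The 30 genes of the list summed to 5385 CPM in the macrophages (5171 to 5605), against 764 CPM in the neutrophil group and 167 in the B lineage group. Single cells ran from 226 to 71226 CPM with a median of 3714. Pf4, a platelet-type chemokine also made by macrophages, carried 32.3% of the sum, and 3 cells held 49.7% of its UMIs. Of 17 list genes tested, 11 were at least 2-fold higher than in the neutrophil group, 0 lower and 6 between (median 2.29). In that comparison 30.1% of all genes tested were higher and 11% lower. Against the B lineage group, where 19.1% of 5420 genes were at least 2-fold higher and 12.6% lower, 15 of 17 were higher and 0 lower. In each comparison 13 genes were not tested, and 7 of the 30 had 0 UMIs in the macrophages, so these counts do not stand for the whole list.

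Genes of the list were read in very different numbers of cells. Cx3cr1, the fractalkine receptor, was in 25 of 89 cells (28.1%, 19.1 to 38.6) at 104 CPM. Thinned, it was in 10.8% of macrophages and 0.0235% of epithelial barcodes. Mrc1, the mannose receptor CD206, was in 19 cells (21.3%) at 72.3 CPM, and 6.33% after thinning. Selenop, a selenium carrier, was in 52 cells at 429 CPM, and Pf4 in 33 cells (37.1%) at 1738 CPM. Thinned shares of Pf4 were 24.9% in macrophages and 2.25% in epithelial barcodes. Ccl24, an eosinophil attractant, was in 16 cells and Ccl12, a monocyte attractant, in 9, with 87.6% and 84.1% of their UMIs in 3 cells each.

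Markers of long-lived tissue macrophages were nearly missing at this depth. Timd4, which binds dying cells, and Lyve1, Vsig4, Cd209f and Cd209g had 0 UMIs in 89 cells, which allows a share of up to 3.37% of cells with a UMI. Cd163, the haemoglobin scavenger receptor, had 2 UMIs in 1 cell, Folr2, a folate receptor, 8 UMIs in 2 cells, and Cd4 1 UMI. Of the 89 macrophages 86 held none of 9 such markers, a set that was put together after the values were seen. Il10, the cytokine that restrains gut macrophages, had 0 UMIs, while its receptor gene Il10rb was in 55 cells at 199 CPM. Igf1 had 0 UMIs as well.

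**Figure D2:**
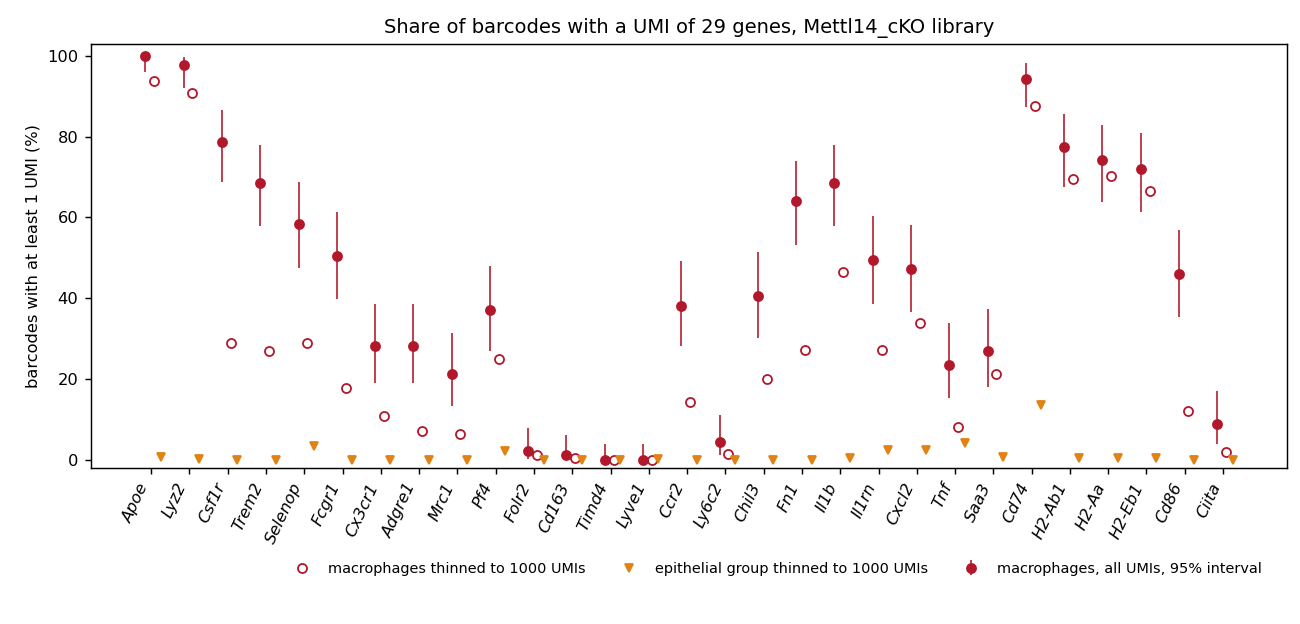
Percent of the 89 macrophages with at least 1 UMI of 29 genes (filled circles, 95% interval), the same after thinning to 1000 UMIs (open circles) and the thinned share in epithelial barcodes (triangles). Cx3cr1 lies at 28.1% and Il1b at 68.5% of macrophages, Timd4 and Lyve1 at 0, and the epithelial share of Cd74 at 13.7%.

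Monocyte genes were mixed. Ccr2, the receptor by which monocytes leave bone marrow, was in 34 macrophages (38.2%, 28.1 to 49.1) at 172 CPM, and Ly6c2 in 4. Ccr2 thinned to 14.3% of macrophages and 0.0601% of epithelial barcodes, and its level in the neutrophil group was 36.5 CPM. Fn1, the matrix protein fibronectin, was in 57 cells at 470.0 CPM, 9.20-fold over the neutrophil group (5.86 to 15.2). Chil3, the chitinase-like protein Ym1, was in 36 cells at 355 CPM, against 827 in the neutrophil group. Of 13 monocyte genes tested against the neutrophil group, 2 (Fn1 and Ccr2) were at least 2-fold higher, 8 lower and 3 between (median -1.25). Over all genes tested there, 30.1% were higher and 11% lower.

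Inflammatory genes were read in most macrophages but below the neutrophil group. The 22 genes of the list summed to 6501 CPM (6265 to 6743), against 25118 CPM in the neutrophil group and 750.2 in the B lineage group. None of 19 tested was at least 2-fold higher than in the neutrophil group, 14 were lower and 5 lay between (median -2.26). Over all genes tested there, 30.1% were higher and 11% lower. Against the B lineage group 12 of 16 were higher and 0 lower, where 19.1% of all genes tested were higher and 12.6% lower. Il1b, the cytokine interleukin-1 beta, carried 25.8% of the sum. It was in 61 macrophages (68.5%, 57.8 to 78.0) with a median of 516 CPM per cell, a highest value of 22400.4 and a pooled level of 1679 CPM (1560.3 to 1804). That was 4.79-fold below the neutrophil group (4.42 to 5.19). Thinned, Il1b was in 46.5% of macrophages and 0.499% of epithelial barcodes.

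Other mediators were uneven. Tnf was in 21 cells at 179 CPM, with 73.4% of its UMIs in 3 cells. Its thinned share, 8.23%, lay near the 4.22% of epithelial barcodes. Saa3, an acute-phase protein of macrophages, was in 24 cells at 1107 CPM, 1.80-fold over the neutrophil group (1.54 to 2.10), with 52.4% of its UMIs in 3 cells. Il1rn, the antagonist of the interleukin-1 receptor, was in 44 cells at 594 CPM. Nos2, the inducible nitric oxide synthase, had 0 UMIs, Il6 and Il12b 1 UMI each, and Il23a 4. Acod1, which makes itaconate, had 45.2 CPM, 19.2-fold below the neutrophil group (12.3 to 31.8), and Lcn2, the iron-trapping protein lipocalin-2, had 117 CPM, against 3521 in the neutrophil group. Of 8 mediators (Il1b, Il1a, Tnf, Il6, Il12b, Il23a, Nos2 and Ptgs2, chosen after their values were seen), 22 cells held none, 39 held 1, 18 held 2 and 10 held 3 or more.

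Chemokines ranged from genes read in most cells to genes read in few. Cxcl16, a membrane-bound chemokine and scavenger receptor, was in 76 cells at 662 CPM, and 3 cells held only 10.2% of its UMIs. Cxcl2, a neutrophil attractant, was in 42 cells at 1622 CPM against 24400.3 in the neutrophil group, 15.0-fold below (13.9 to 16.2). Ccl3 was in 28 cells and Ccl6 in 25. Ccl4 was in 16 cells, Cxcl3 in 7 and Ccl5 in 8, with 73.0%, 85.4% and 80.9% of their UMIs in 3 cells. Of 16 chemokines tested against the neutrophil group, 9 were at least 2-fold higher and 6 lower. Over all genes tested there, 30.1% were higher and 11% lower. Ccl3 and Ccl4, and Cxcl1, Cxcl2 and Cxcl3, have near copies, so reads may have been split between them.

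**Figure D3:**
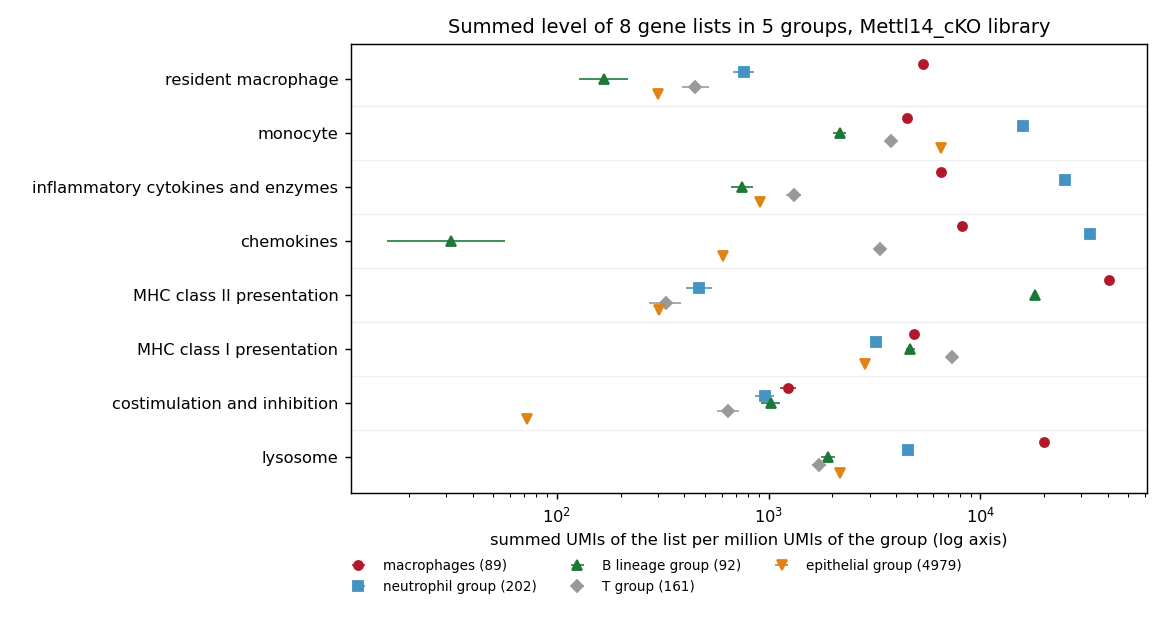
Summed CPM (log axis) of 8 gene lists in the 89 macrophages and 4 other groups of the knockout library, with 95% counting intervals. The macrophages stand at 40534 CPM for MHC class II and 19880 CPM for the lysosome list, and below the neutrophil group for the inflammatory list (6501 and 25118 CPM).

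Antigen presentation by MHC class II set the macrophages far from the neutrophil group. These genes show peptides from engulfed proteins to CD4 T cells. H2-Aa, H2-Ab1 and H2-Eb1 encode the peptide-binding chains, Cd74 the invariant chain that blocks the groove until it is cut, and H2-DMa and H2-DMb1 the chaperone that loads peptide. Ciita encodes the coactivator that binds their promoters through factors on an X box and a CCAAT-bearing Y box. Promoter sequence is shown because the chain genes were absent together in some macrophages and high together in others. RefSeq promoters (GRCm38.p6, 250 bases before to 50 after the start) were found for 12 of 16 genes of the list. The windows are H2-Eb1 at chr17:34305617-34305916 (plus strand), H2-DMb1 at chr17:34152941-34153240 (plus) and H2-Aa at chr17:34287774-34288073 (minus), each read along its gene. Capitals mark AACNNATGATGC, a shared run described after the sequences, and CCAAT or its reverse complement.

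H2-Eb1: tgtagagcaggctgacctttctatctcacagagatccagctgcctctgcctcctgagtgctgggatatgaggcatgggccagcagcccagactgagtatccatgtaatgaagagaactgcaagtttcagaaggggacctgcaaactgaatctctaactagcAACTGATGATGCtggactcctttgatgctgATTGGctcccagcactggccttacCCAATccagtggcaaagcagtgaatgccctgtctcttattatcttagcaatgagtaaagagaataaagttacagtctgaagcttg
H2-DMb1: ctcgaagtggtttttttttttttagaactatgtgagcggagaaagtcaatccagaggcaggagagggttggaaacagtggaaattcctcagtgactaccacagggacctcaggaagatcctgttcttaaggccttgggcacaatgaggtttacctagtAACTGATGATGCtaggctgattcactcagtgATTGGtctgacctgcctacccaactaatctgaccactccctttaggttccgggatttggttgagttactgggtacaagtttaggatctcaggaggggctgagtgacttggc
H2-Aa: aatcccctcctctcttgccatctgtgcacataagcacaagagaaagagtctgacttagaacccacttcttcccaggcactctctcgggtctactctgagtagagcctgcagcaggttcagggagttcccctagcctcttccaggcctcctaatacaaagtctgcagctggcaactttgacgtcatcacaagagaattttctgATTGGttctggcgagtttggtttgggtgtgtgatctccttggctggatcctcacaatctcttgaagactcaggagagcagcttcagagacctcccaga

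AACNNATGATGC was taken from the promoters of H2-Eb1, H2-DMb1 and H2-Ob as the 12-base window with most positions identical in all 3 (10 positions, N elsewhere), so their match follows from the choice. It stood at -89 from the start in H2-Eb1, -92 in H2-DMb1 and -85 in H2-Ob, with 18, 19 and 16 bases before the first CCAAT. Of the 9 other genes 1 held it, H2-DMb2, at -121 with 19 bases between. H2-DMb2 is a near copy of H2-DMb1, so this match is not independent of the choice. Both strands were searched, and of 32851 RefSeq promoters of this length 0.0396% held AACNNATGATGC and 37.4% held CCAAT. Of the 12 genes 10 held CCAAT. H2-Aa held CCAAT at -48 and not the run, which says only that these letters are not in the window.

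The MHC class II list summed to 40534 CPM (39943 to 41132), or 18142 CPM in the B lineage group, 470 in the neutrophil group and 303 in epithelial barcodes. Cd74 made up 54.5% of the macrophage sum. Medians per cell lay closer together, at 29241 CPM in macrophages and 25674 CPM in the B lineage group. B cell and plasma cell genes took 97346 CPM of the B lineage pool, and 1 barcode held 9411 of their UMIs. Their part in the pooled ratios to the B lineage group was not tested. H2-Aa was in 66 cells with a pooled level of 5714 CPM and a median of 4104 per cell (0 to 17448). The neutrophil group had 0 UMIs of it, which makes the macrophages at least 783-fold higher when 3 counts are set for the whole group. Cd74 was in 84 cells at 22087 CPM, 2.09-fold over the B lineage group (2.01 to 2.17), and H2-Ab1 in 69 cells at 3773 CPM, 2.94-fold over it (2.65 to 3.28). H2-Eb1 was in 64 cells at 4192 CPM, 1.94-fold over (1.78 to 2.11). Thinned shares of these 4 genes in macrophages ran from 66.5% to 87.6%, and in epithelial barcodes they were 0.371% (H2-Aa), 0.492% (H2-Ab1), 0.564% (H2-Eb1) and 13.7% (Cd74).

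Genes of peptide loading were uneven against the B lineage group. H2-DMb1 had 646 CPM in macrophages and 57.5 in the B lineage group, 11.2-fold higher (7.14 to 18.7), but its near copy H2-DMb2 had 27.1 and 187 CPM, and reads may be split between them. H2-DMa had 538 and 293 CPM. H2-Oa and H2-Ob, which encode an inhibitor of peptide loading typical of B cells, had 7 and 1 UMIs in macrophages, or 15.8 and 2.26 CPM, against 141 and 106 CPM. Ciita had 9 UMIs in 8 macrophages, or 20.3 CPM (9.30 to 38.6), and 14.4 CPM in the B lineage group. Of 13 genes of the list tested against the B lineage group 4 were at least 2-fold higher, 4 lower and 5 between. Over all genes tested there, 19.1% were higher and 12.6% lower. Against the neutrophil group 8 of 9 were higher and 0 lower (median 5.46), where 30.1% of all genes tested were higher and 11% lower. Against T cells 9 of 10 were higher and 0 lower, where 14.7% of all genes tested were higher and 21% lower. Against epithelial barcodes 9 of 10 were higher and 0 lower as well, where 17.1% of all genes were higher and 26.1% lower.

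Macrophages differed widely among themselves in MHC class II. The sum of H2-Aa, H2-Ab1 and H2-Eb1 ran from 0 to 46528 CPM per cell, with a median of 10496, and 27 cells lay over 20000 CPM. In 19 of 89 cells (21.3%) it was 0 UMIs, whereas 0 of 92 B lineage barcodes were at 0, with a median of 8771 CPM. The 19 cells had a median of 3949 UMIs (833 to 8784) against 5439.5 in the other 70, and 15 of them held at least 3000 UMIs. Of these 19 cells 15 held Csf1r and 12 Fcgr1, and their C1q sums ran from 3 to 96. Cd74 was in 14 of them at 771 CPM pooled, and at 26546 CPM in the other 70. Across the 89 cells the Spearman correlation with the MHC class II sum was 0.95 for Cd74, 0.38 for UMIs per cell, 0.28 for C1q and 0.08 for Il1b. These are descriptions over cells of 1 library that share its depth range.

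**Figure D4:**
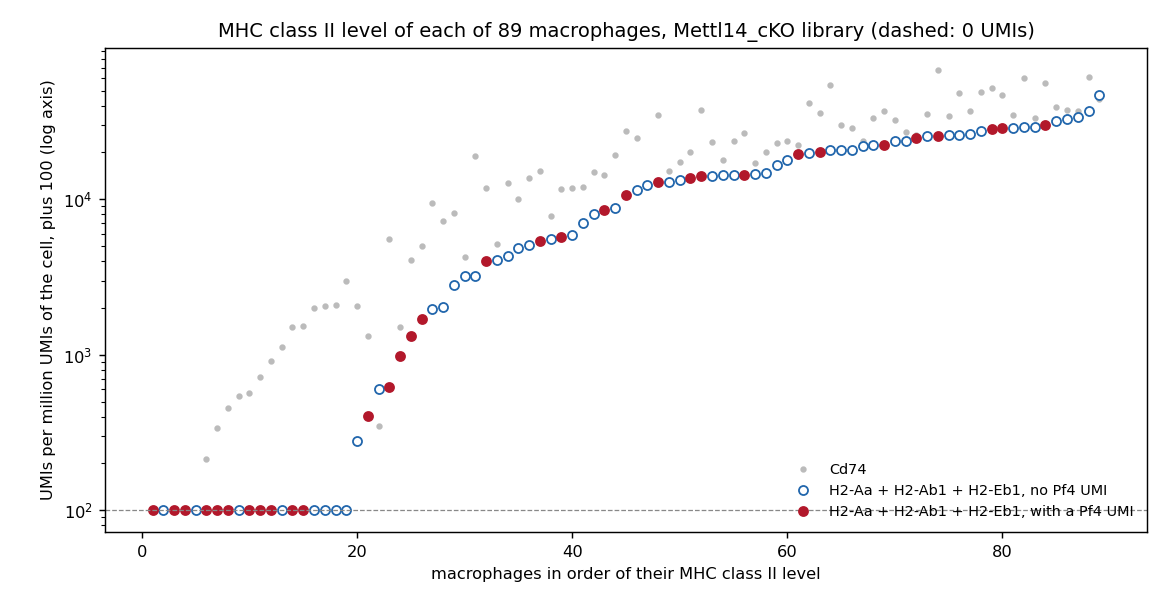
MHC class II level (H2-Aa, H2-Ab1 and H2-Eb1 summed, CPM plus 100, log axis) of each of the 89 macrophages in rising order, filled where the cell held a Pf4 UMI, with the Cd74 level of the same cell in grey. A run of 19 cells lies at 0 UMIs, of which 11 held Pf4, and the highest cell reaches 46528 CPM.

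The 29 cells with the lowest and the 29 with the highest MHC class II sum, groups formed after the values were seen, had other values in other genes too. Their median depths were 4159 and 5534 UMIs. Pf4 was in 16 of the low cells and 8 of the high ones, at 4492 and 726 CPM. The 3 cells that held 49.7% of all Pf4 UMIs were among the low cells, so its levels rest largely on them. Hmox1, which breaks down haem, had 913 and 168 CPM (19 and 12 cells), and Arg1, which breaks down arginine, 477 and 66.0 CPM (10 and 3 cells). The chemokine Ccl6 had 1083 and 42.0 CPM (15 and 5 cells). Il1b had 1599.7 and 1933 CPM in 17 and 22 cells, Lyz2 8160 and 5942 CPM, and Apoe 15100 and 14304 CPM. The MHC class I list stood at 4969 and 5006 CPM. Epithelial genes summed to 3070 CPM in the low cells and 1086 CPM in the high ones. A single low cell held 218 of the 798 epithelial UMIs of all macrophages. The part of epithelial genes in these differences was not tested.

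MHC class I genes, which show peptides from within the cell to CD8 T cells, lay near the level of the B lineage group. The list summed to 4849 CPM in macrophages, 4671 in the B lineage group, 3216 in the neutrophil group and 7324 in T cells. B2m, the light chain of class I, had 1175 CPM in 85 macrophages, and H2-D1 and H2-K1, heavy chains whose reads are hard to part from near copies, had 705 and 608 CPM. Psmb8, an immunoproteasome subunit, had 416 CPM against 497 in the B lineage group. None of 18 genes tested was at least 2-fold higher than in the B lineage group, and 4 were lower (median -0.01). Over all genes tested there, 19.1% were higher and 12.6% lower. Against the neutrophil group 9 of 15 were higher and 0 lower (median 1.04), where 30.1% of all genes tested were higher and 11% lower. Against T cells 0 of 17 were higher and 6 lower, where 14.7% of all genes tested were higher and 21% lower.

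Costimulatory genes were read sparsely. Cd48, a ligand that adheres to T cells, led with 251 CPM in 57 macrophages, and Sirpa, the receptor of the signal against engulfment, had 183 CPM in 48. Cd86, which costimulates T cells through CD28, was in 41 cells (46.1%, 35.4 to 57.0) at 129 CPM, 2.94-fold over the neutrophil group (1.71 to 5.31). Thinned, it was in 12.2% of macrophages and 0.0702% of epithelial barcodes. Cd80, its partner, had 5 UMIs and Cd40 15. Cd274, which encodes PD-L1, was in 21 cells at 52.0 CPM, against 143.5 in the neutrophil group. Cd83, a marker of mature presenting cells, had 102 CPM, against 368 in the B lineage group.

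Genes of the lysosome summed to 19880 CPM, against 4533 in the neutrophil group and 1909 in the B lineage group. Of 22 tested 17 were at least 2-fold higher than in the neutrophil group and 0 lower (median 1.96). Over all genes tested there, 30.1% were higher and 11% lower. Ctss, the cathepsin that cuts the invariant chain, led with 3466 CPM in 87 cells, 15.8-fold over the neutrophil group (12.8 to 19.8). Ctsl and Ctsb, further cathepsins, had 2305 and 1921 CPM, and Ctsz had 1503. Lgmn, the endopeptidase legumain, had 1489 CPM in 82 cells, 24.5-fold over the neutrophil group (16.4 to 38.1).

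Receptors for engulfment lay near the neutrophil group as a list. The phagocytic and Fc receptor genes summed to 9018 CPM against 8265, and Fcer1g alone gave 65.5% of the macrophage sum. Of 15 tested 7 were at least 2-fold higher, 1 lower and 7 between, with a median of 0.46 beside 0.56 for all genes. Of all genes tested 30.1% were higher and 11% lower. Fcgr2b, the inhibitory IgG receptor, had 608 CPM in 76 cells and Fcgr3 481 CPM in 74. C3ar1, the receptor of complement fragment C3a, was in 56 cells at 262 CPM, 21.5-fold over the neutrophil group (8.97 to 67.6), while C5ar1 had 303 CPM against 800.4. Trem2, a lipid-sensing receptor, was in 61 cells (68.5%) at 355 CPM, and 26.9% after thinning against 0.0123% in epithelial barcodes. Spp1, the secreted protein osteopontin, was in 25 cells at 748 CPM, with 62.2% of its UMIs in 3 cells, and 20 of these 25 also held Trem2. Fth1, the heavy chain of ferritin, was the most abundant gene of the macrophages with 56067 CPM, below the 87069 CPM of the neutrophil group. Hmox1 had 420.3 and 1324 CPM in the same order, and the iron exporter Slc40a1 had 0 UMIs in macrophages.

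Cells with a UMI of Ccr2 or Ly6c2, markers of recent monocyte descent, numbered 37, and 52 held none. Their median depths were 4733 and 4998 UMIs, and epithelial genes summed to 2396 and 1363 CPM, whose part was not tested. A single cell held 218 of the 798 epithelial UMIs of all macrophages. Monocyte genes summed to 5996 CPM with and 3371 CPM without, although the list contains the genes used for the split. The sum is not particular to monocytes, as it was 4490 CPM over all macrophages and 6542 CPM in epithelial barcodes. S100a6 gave 31.1% of the macrophage sum. Chil3 had 583 and 185 CPM, a ratio of 3.15 (2.22 to 4.53), in 45.9% and 36.5% of cells. Lyz2 had 9087 and 5746 CPM. Pf4 went the other way with 520 and 2642 CPM, in 9 and 24 cells, and resident genes summed to 3170 and 7029 CPM. The resident list held 598 UMIs with and 1785 without. Pf4 gave 98 and 671 of them, Ccl24 11 and 320, and Ccl12 1 and 81. As given above, a few cells held much of the UMIs of these genes, so the sums do not stand for the rest of the list. After thinning to 1000 UMIs, cells were sorted anew by the UMIs left to them, into 15 with and 71 without, so these are not the same sets of cells at equal depth. The ratios were then 5.07 for Chil3 (2.28 to 11.3), 1.82 for Lyz2, 0.18 for Pf4 (0.07 to 0.41) and 0.60 for the resident list.

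For Il1b and MHC class II the ratio was near 1 in the thinned data. Il1b had 1124 CPM with and 2091 CPM without Ccr2 or Ly6c2 (ratio 0.54, 0.46 to 0.63), yet the thinned ratio was 0.95 (0.59 to 1.46). The MHC class II sum had 15120 and 12610 CPM (ratio 1.20, 1.14 to 1.26), and 0.95 when thinned (0.80 to 1.11). Spp1 had 1251 and 374 CPM, but 0 and 54 UMIs after thinning. Of the 8 genes with the highest ratio between the cells with and without Ccr2 or Ly6c2, Retnla and Lyz1 had 69 and 109 UMIs in 1 cell with. Of the 8 lowest, Cxcl3 had 1 and 314 UMIs, Ccl12 1 and 81, and Ccl24 11 and 320, with at least 84.1% of them in 3 cells.

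Some single cells held inflammatory and resident genes together, although Il1b was read less often in cells with Pf4 or Cx3cr1 than in those without. Of 33 cells with Pf4, 20 (60.6%) held Il1b, compared with 73.2% of those without. Of 25 cells with Cx3cr1, 12 (48.0%) held Il1b, compared with 76.6% of the others. Of 19 with Mrc1, 14 (73.7%) did, compared with 67.1% of the others. Cxcl2 and Il1b shared 34 cells, 81.0% of the 42 with Cxcl2, and 57.4% of cells without Cxcl2 held Il1b. Tnf and Il1b shared 18 of the 21 cells with Tnf, and 63.2% of cells without Tnf held Il1b. These gene pairs were chosen after the values were seen, and deeper cells hold more genes of every kind.

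Cells with an Il1b UMI numbered 61 and those without 28, with median depths of 5161 and 4434.5 UMIs. Epithelial genes summed to 1326 CPM with and 2993 CPM without Il1b, and erythroid genes to 15.8 and 1003 CPM. A single cell without Il1b held 218 of the 798 epithelial UMIs of all macrophages. Another cell without Il1b held 125 of the 132 erythroid UMIs. The part of epithelial and erythroid genes in the values that follow was not tested. After thinning, cells were sorted anew by the UMIs left to them, into 41 with and 45 without, so thinned ratios compare other sets of cells. Cx3cr1 had 69.6 CPM with and 190 CPM without Il1b, in 12 and 13 cells, and the ratio was 0.37 (0.20 to 0.68), or 0.24 after thinning (0.04 to 0.84). Il1rn, the natural brake on interleukin-1, had 677 and 387 CPM, and the thinned ratio was 2.13 (1.15 to 4.08). Apoe had 11306 and 17684 CPM. Saa3 had 927 and 1556 CPM, but the thinned ratio was 1.45 (0.93 to 2.29).

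Cells with Pf4 numbered 33 and those without 56, a split chosen after the values were seen, with median depths of 5717 and 4530.5 UMIs. The MHC class II chains had 10671 CPM with and 15699.5 CPM without Pf4, a ratio of 0.68 (0.64 to 0.72), or 0.57 after thinning (0.49 to 0.67). Saa3 had 399 and 1582 CPM, in 6 and 18 cells, and the thinned ratio was 0.36 (0.17 to 0.70). Ccr2 had 95.6 and 223 CPM, in 8 and 26 cells, but the thinned interval of its ratio, 0.42, ran from 0.05 to 1.86. Tnf had 382.5 and 41.5 CPM, and 174 and 175 CPM after thinning. The thinned sets held 23 cells with and 63 without Pf4. Epithelial genes summed to 2424 CPM with and 1386 CPM without Pf4, and their part was not tested. A single cell with Pf4 held 218 of the 798 epithelial UMIs of all macrophages.

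Mettl14, the m6A methyltransferase subunit targeted in the epithelium, had 2 UMIs in the 89 macrophages, or 4.52 CPM (0.547 to 16.3), and 5.17 CPM in epithelial barcodes. No difference was detectable at this depth. Cycling genes summed to 441 CPM in macrophages, against 2363 in the B lineage group and 2589 in T cells, and Mki67 had 7 UMIs in 5 cells.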

How the data were processed

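Raw UMI counts were deposited as 1 matrix per library. The authors used Cell Ranger 3.1.0 per the file headers, and 3.0.0 and Seurat 3 are named in the submitters' processing notes. For the genome build, no name was given in the sources used here. Each library is 1 pool of 3 mice, with 111239295 control and 89729527 knockout UMIs. GENCODE M21 gave coordinates only. Macrophages and gene lists were chosen with earlier results of these data known. Comparison groups of the knockout library had no C1q UMI: neutrophil (S100a8 and S100a9 summing to at least 20), B lineage (Cd79a and Jchain to at least 3), T (with Cd3e) and epithelial (Epcam of at least 3, no Ptprc or Cd3e). The first 3 had at most 1 Epcam UMI. Their median depths were 1663, 1908 and 1960 UMIs, below the 4933 of the macrophages. The neutrophil group had a median of 573.5 detected genes, near the limit of 500. UMIs were summed per group and scaled to CPM with exact Poisson intervals, and shares have Clopper-Pearson intervals. Both cover the counting of molecules only. No test was possible with 1 library per genotype. Gene counts cover genes with at least 10 UMIs in the pair of groups and 20 CPM in either, and 2-fold refers to CPM plus 10. A limit for 0 uses 3 counts.

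Named were the C1q genes, Apoe, Lyz2 and Mettl14, the 4 highest and the defining genes of each list described, the 12 genes highest over all other barcodes, the 8 highest over the neutrophil and B lineage groups, and the 8 highest and lowest between cells with and without Ccr2 or Ly6c2. Other genes named were chosen after their values were seen. Some genes of the lists are not reported here by name. The 28 lists held 398 genes, 2 of which are not used here. Thinned shares are those expected over draws of 1000 UMIs and leave out 3 shallower macrophages and 28 epithelial barcodes. Thinned sets of cells come from 1 random draw. Alternatives changed the C1q minimum, cell filter, limits on other cell types, doublets, weighting, depth and denominator. Software was Python 3.11.15 with scipy 1.17.1, scanpy 1.11.5 for Scrublet, pandas 2.3.3, numpy 2.4.6 and matplotlib 3.10.9. The fold calculation was tested on simulated data.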

Additional observations from a re-analysis of the deposited data

How the results depend on the processing

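No paired analysis was possible because each genotype has 1 library. Thinning to 1000 UMIs, with cells sorted anew, turned some ratios between sets of macrophages: with over without Ccr2 or Ly6c2, the MHC class II chains went from 1.20 to 0.95 and Spp1 from 3.34 to 0 (0 and 54 UMIs), and with over without Il1b, Saa3 went from 0.60 to 1.45. The control share was 0.0765% (7 cells) with at least 3 C1q UMIs per 10000, 0.0141% (1 cell) with the stricter cell filter and 0.0109% (1 cell) with stricter limits on other cell types, in place of 0.0328% (3 cells). With 1000 genes and under 10% mitochondrial UMIs, macrophages were 1.90% of knockout barcodes, and 883 genes in place of 1484 were at least 2-fold higher than in the neutrophil group. With at least 10 C1q UMIs, the inflammatory list summed to 6129 CPM and MHC class II to 43141 CPM, and the log2 ratio of the MHC class II chains between cells with and without Ccr2 or Ly6c2 was 0.18 in place of 0.26. With at least 3 C1q UMIs per 10000, MHC class II summed to 38949 CPM. Stricter limits on other cell types left 72 of the 89 macrophages, in which the resident, inflammatory and MHC class II lists summed to 5768, 6888 and 42041 CPM. The unweighted mean of cells gave 36632 CPM for MHC class II. Thinning to 1000 UMIs gave 5930.2 CPM for resident genes and 37837 for MHC class II, and to 2000 UMIs 5642 and 38444 CPM. Leaving mitochondrial, ribosomal and S100a8 and S100a9 UMIs out of the total gave 6749, 8148 and 50803 CPM for the 3 lists. Of 1070 values of named genes under 10 settings, 215 moved beyond their interval and 51 by over 1.5 times. The cause of these shifts was not tested. Genes read in few cells at a median of 4933 UMIs cannot be called absent.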
